A study of Mus musculus with 62 samples.

Results

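Skeletal muscle releases proteins that act on other tissues, and several of them have been linked to exercise. The 6 genes described here, Fndc5, Il15, Metrnl, Ostn, Gdf15 and Fstl1, were chosen by symbol for that link. They are 6 of the 55487 genes of the deposited table, and 5 of the 6 had enough counts for the test, all but Gdf15. All levels are of messenger RNA, so secreted protein was not measured.

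Poly-A RNA was sequenced from the quadriceps, the large muscle at the front of the thigh, of 62 male mice that combined 3 factors. These were voluntary running on a wheel, nicotinamide riboside (NR), a form of vitamin B3 that cells turn into NAD, and pterostilbene (PT), a plant compound that resembles resveratrol. The running groups had 7 mice with neither supplement, 7 with NR, 8 with PT and 8 with both, and the 4 sedentary groups, with the same supplements, had 8 mice each. The series title gives the NR route as intravenous, and the sources used here give neither strain, age nor doses. Each group had at most 1 mouse on each of 8 days of termination. On every day all runners were taken at 1 time, noon or morning, and all sedentary mice at the other, so running state is also a difference between sessions of the day.

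Libraries held 5.64 to 30.8 M counts, with a median of 16.1 M. The library of running mouse 1 with NR stood apart, with the lowest total and a scaling factor of 0.687 where the next lowest was 0.956. All 10 myofibre markers were counted, with sums of 161000 to 265000 CPM (counts scaled to library size) in runners and 176000 to 223000 CPM in sedentary mice. The 12 markers of fibroblasts, the cells that make connective tissue, summed to 1830 to 4080 CPM in runners and 1330 to 4100 CPM in sedentary mice, with overlapping ranges. The 12 endothelial markers summed to 350 to 613 CPM in runners, with a median of 459 CPM, and to 329 to 444 CPM in sedentary mice, with a median of 390 CPM.

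The factors work in different ways. Fndc5 encodes a membrane protein whose cleaved outer part is the hormone irisin, and in mice its transcription is raised by the coactivator PGC-1alpha. IL-15 is a cytokine for natural killer and memory T cells, handed to them by the alpha chain of its own receptor. Meteorin-like, the product of Metrnl, is a hormone of muscle and fat that was tied to KIT in mouse endothelial cells, and osteocrin or musclin, the product of Ostn, occupies the clearance receptor of the natriuretic peptides. FSTL1 is a secreted glycoprotein made largely by connective tissue cells that binds BMP4. GDF15 is a stress hormone read in the hindbrain by GFRAL together with RET.

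Per length, so that genes can be set side by side, Fstl1 and Fndc5 were the most abundant of the 6 over all 62 libraries. Fstl1 stood at 19.6 ± 6.55 RPKM (SD), the CPM divided by gene length in kilobases, and Fndc5 at 16.9 ± 4.22 RPKM. Ostn followed at 5.69 ± 1.9 RPKM, Il15 at 3.56 ± 1.03 RPKM and Metrnl at 3.45 ± 1.34 RPKM. Gdf15, at 0.0368 ± 0.047 RPKM, was close to the limit of counting. Metrnl varied most among the 5 tested genes, with a coefficient of variation of 39%, and Fndc5 least, with 24.9%.

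Running was the comparison in which members were called. With edgeR's quasi-likelihood test over 14549 genes, fitted with the 8 groups, the day and the time, a gene was called at a Benjamini-Hochberg adjusted p below 0.05. Fndc5 and Il15 were called, both higher in runners, and Metrnl, Ostn and Fstl1 were not. The background was 14.0% of all tested genes called for running, 8.41% higher and 5.58% lower in runners. In bulk tissue, more cells of a type and more RNA per cell cannot be told apart.

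**Figure D1:**
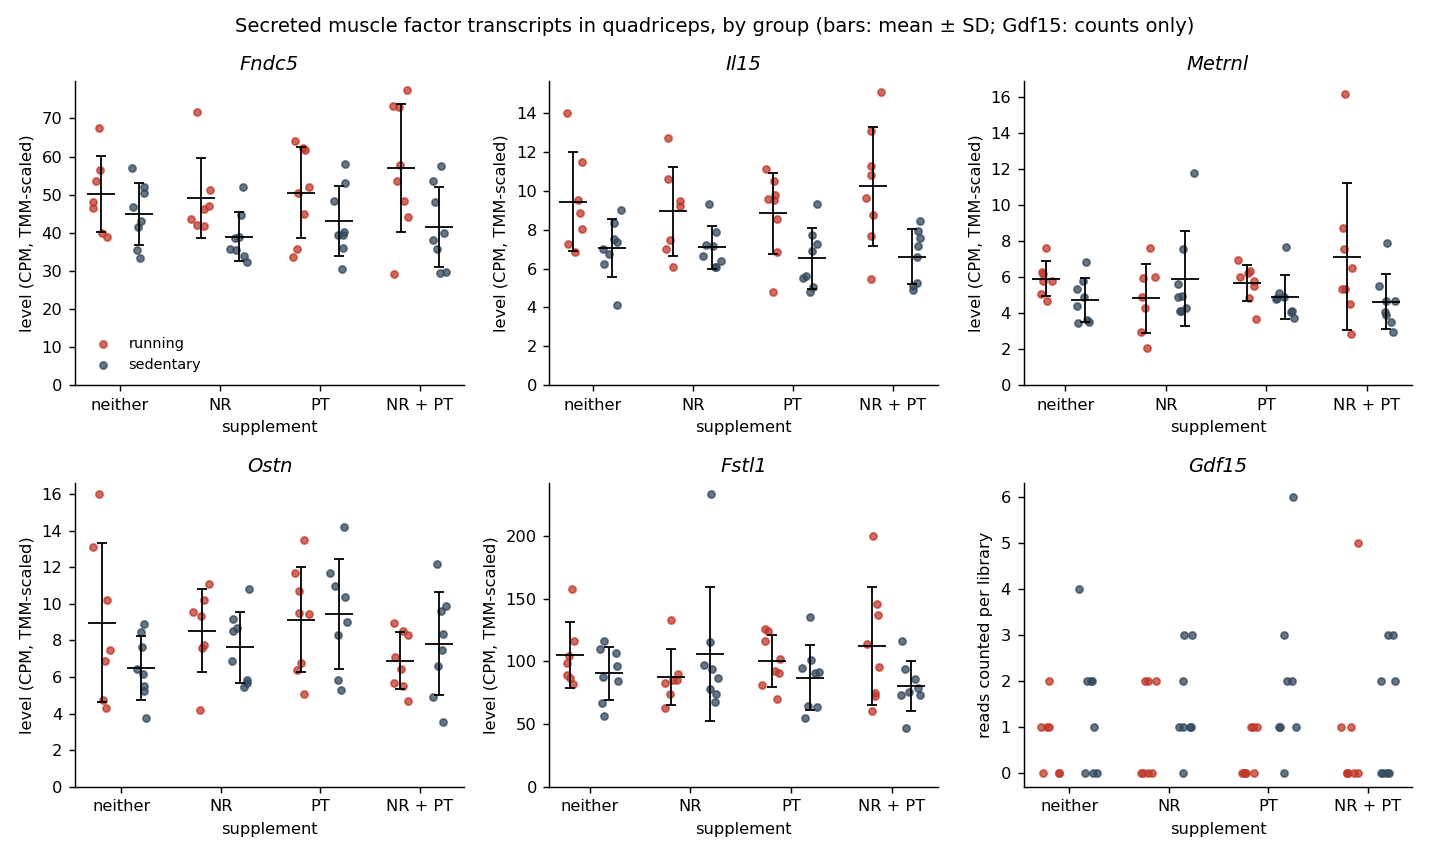
Level of each member in each library, by supplement (horizontal axis), with runners in red left of sedentary mice in blue; bars are the group mean ± SD in CPM, and the Gdf15 panel shows reads counted per library without bars. The 4 running groups lie above the 4 sedentary groups in mean Fndc5 and mean Il15, with overlapping animals, and no Gdf15 library holds more than 6 reads.

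Fndc5 (ENSMUSG00000001334) lies on the plus strand of chromosome 4, at 129136999 to 129144593 in mm10. Its levels in runners had a lowest value of 29.2, a median of 49.3 and a highest value of 77.4 CPM, against 29.5, 39.6 and 58.1 CPM in sedentary mice. The ranges overlapped, with 8 of 30 runners above the highest sedentary mouse and 26 of 30 above the sedentary median. Mean Fndc5 was 51.8 ± 12.5 CPM in runners and 42.1 ± 8.61 CPM in sedentary mice (SD, n = 30 and 32). The fitted log2 change was 0.29 ± 0.08 (SE, 95% interval 0.12 to 0.46), or 1.23-fold, with an edgeR adjusted p of 0.0155. Fndc5 was higher in the runner in 21 of 30 pairs of the same day and supplement, and the session mean of runners was higher on 8 of 8 days.

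The 250 bases before the Fndc5 start are printed because they end just before the first base of the deposited gene and show what kind of promoter the gene has. They come from RefSeq in build GRCm38.p6, at chr4:129136749-129136998 on the plus strand, with CG pairs in capitals.
Fndc5: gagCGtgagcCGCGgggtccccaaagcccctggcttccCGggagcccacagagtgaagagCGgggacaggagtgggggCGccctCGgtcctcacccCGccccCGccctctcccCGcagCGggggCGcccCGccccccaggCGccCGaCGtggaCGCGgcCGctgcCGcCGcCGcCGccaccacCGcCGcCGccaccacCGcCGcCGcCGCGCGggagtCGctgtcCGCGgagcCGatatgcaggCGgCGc
This window held 38 CG pairs and 80.8% G or C, against medians of 6 pairs and 52.4% over 32851 promoters of the same length, of which 1.88% had at least 38 pairs. None of 6 motifs searched on both strands was found in it. These were the ERR site AAGGTCA (in 4.08% of all promoters), the short CRE site TGACG (17.8%) and the full CRE TGACGTCA that contains it (1.55%), an ATF4 and CHOP element TTGCATCA (0.791%), the FOXO site GTAAACA (3.17%) and the E-box CANNTG (66.2%). The lack of a match says only that those letters are not in these bases.

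Il15 (ENSMUSG00000031712), on the minus strand of chromosome 8 at 82331632 to 82403209 in mm10, had the largest called change of the members. Its lowest, median and highest levels were 4.78, 9.49 and 15.1 CPM in runners, against 4.12, 6.96 and 9.32 CPM in sedentary mice. The ranges overlapped less than those of Fndc5, with 16 of 30 runners above the highest sedentary mouse and 25 of 30 above the sedentary median. Mean Il15 was 9.36 ± 2.45 CPM in runners and 6.82 ± 1.35 CPM in sedentary mice (SD, n = 30 and 32). The log2 change was 0.45 ± 0.09 (SE, 95% interval 0.27 to 0.62), or 1.36-fold, with an edgeR adjusted p of 0.000308. As for Fndc5, 21 of 30 matched pairs and 8 of 8 days had the runners higher.

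The mice were handled in 2 cohorts, days 1 to 4 and days 5 to 8. Within cohort 1 the log2 change of Il15 was 0.53 ± 0.11 (SE, edgeR adjusted p = 0.00707) and within cohort 2 it was 0.32 ± 0.12 (adjusted p = 0.2). Fndc5 had 0.33 ± 0.11 (edgeR adjusted p = 0.0929) within cohort 1 and 0.22 ± 0.12 (adjusted p = 0.399) within cohort 2, so that it was called in neither alone. Its call also ended without day 1 (adjusted p = 0.106) and without day 4 (adjusted p = 0.0702), the 2 days with the widest gap between runners and sedentary mice. Day 1 had session means of 60.8 CPM in runners and 42.4 CPM in sedentary mice, and day 4 had 55 CPM in runners and 37.9 CPM in sedentary mice. When counts were summed per session, so that a session and not a mouse was the unit, Fndc5 had a log2 change of 0.30 (edgeR adjusted p = 0.00189) and Il15 of 0.44 (adjusted p = 0.00528).

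**Figure D2:**
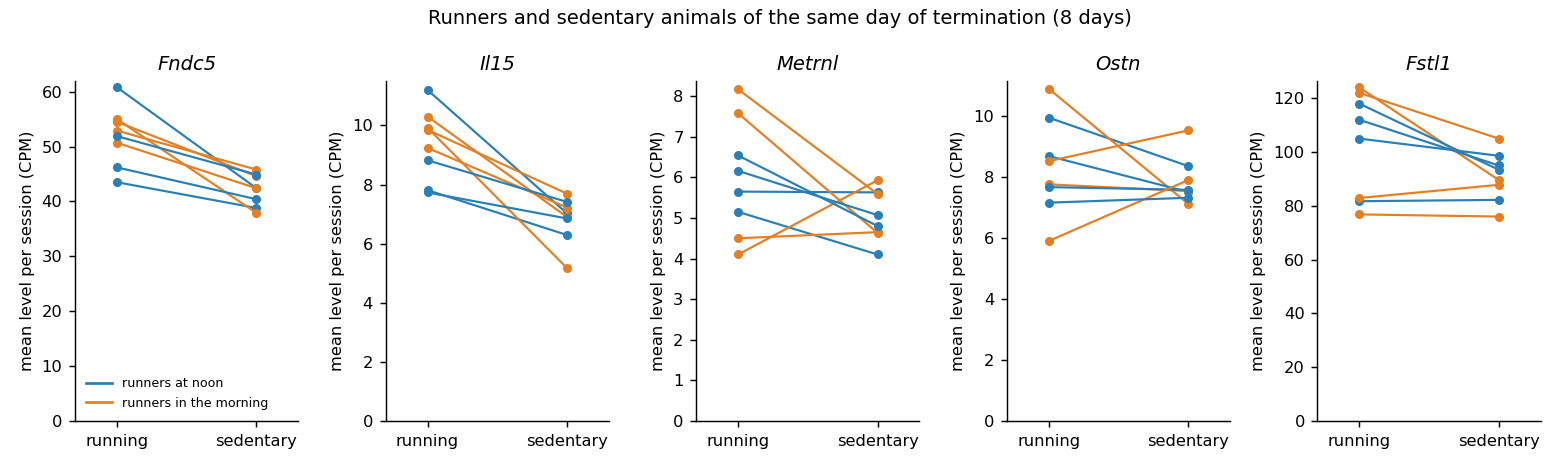
Mean level in CPM of runners (left point) and sedentary mice (right point) of each of 8 days, joined by a line, in blue where the runners were taken at noon and in orange where they were taken in the morning. For Fndc5 and Il15 all 8 lines slope down to the sedentary side whichever time the runners had, whereas for Metrnl, Ostn and Fstl1 lines of both directions are seen.

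Metrnl (ENSMUSG00000039208), on the plus strand of chromosome 11 at 121701544 to 121716286 in mm10, had lowest, median and highest levels of 2.07, 5.8 and 16.2 CPM in runners, against 2.97, 4.74 and 11.8 CPM in sedentary mice. The highest and the lowest mouse of all were both runners. The highest was running mouse 7 with both supplements. The lowest, at 8 counts, was running mouse 1 with NR, whose library had the lowest total. The log2 change was 0.19 ± 0.12 (SE, 95% interval -0.04 to 0.43), which did not pass the test (edgeR adjusted p = 0.288). Runners were higher in 24 of 30 matched pairs, more pairs than for either called gene, and on 6 of 8 days.

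Fstl1 (ENSMUSG00000022816), on the plus strand of chromosome 16 at 37776873 to 37835624 in mm10, had lowest, median and highest levels of 60.5, 91.4 and 200 CPM in runners, against 46.9, 87 and 233 CPM in sedentary mice. The highest level was that of a sedentary mouse, and no runner lay above it. The log2 change of 0.15 ± 0.11 (SE, 95% interval -0.07 to 0.37) did not pass the test (edgeR adjusted p = 0.377), with runners higher in 20 of 30 pairs and on 6 of 8 days.

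Ostn (ENSMUSG00000052276), on the same strand and chromosome at 27307489 to 27351212, had lowest, median and highest levels of 4.22, 8.02 and 16 CPM in runners, against 3.54, 7.96 and 14.2 CPM in sedentary mice. The 2 medians nearly coincided, and 15 of 30 pairs and 5 of 8 days had the runners higher. The log2 change was 0.09 ± 0.12 (SE, 95% interval -0.16 to 0.33, edgeR adjusted p = 0.699). Its sign turned when cohort 2 was fitted alone (-0.10) and without day 2 (-0.03), and within cohort 1 it was 0.28 ± 0.16 (adjusted p = 0.328). The predicted genes Gm15970 and Gm32312 overlap Ostn on the other strand, at means of 0.0198 and 0.0171 CPM. Without the strand setting of the counting, these low means cannot show whether Ostn lost reads to the overlap, which was not tested.

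Gdf15 (ENSMUSG00000038508), on the minus strand of chromosome 8 at 70629393 to 70632456 in mm10, was close to absent in this muscle. It had 21 counts in all among 517 M counts of runners and 49 counts among 560 M counts of sedentary mice. At least 1 read was found in 13 of 30 runners and in 23 of 32 sedentary mice, and the highest count in any library was 5 in runners and 6 in sedentary mice. In a fit without the filter on low counts, over 35005 genes, the log2 change was -1.0 ± 0.43 (SE, 95% interval -1.85 to -0.15) and was not called, with an edgeR adjusted p of 0.216. Its session mean was higher in runners on 1 of 8 days. These values rest on single reads, which are not independent molecules.

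The Gdf15 window is printed for contrast with that of Fndc5. It is the 250 bases before the more upstream RefSeq start of the gene, in build GRCm38.p6 at chr8:70632457-70632706 on the minus strand, again 5′ to 3′ with CG pairs in capitals.
Gdf15: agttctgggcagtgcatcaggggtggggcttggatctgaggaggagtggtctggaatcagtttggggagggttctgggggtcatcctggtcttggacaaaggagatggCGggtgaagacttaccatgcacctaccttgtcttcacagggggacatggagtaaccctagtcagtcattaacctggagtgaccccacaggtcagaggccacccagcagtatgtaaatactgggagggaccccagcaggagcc
It held 1 CG pair and 56.4% G or C, and 18.8% of promoters had no more than 1 pair. None of the 6 motifs was found in it. Gdf15 has a second RefSeq entry, whose window at chr8:70632096-70632345 lies within the deposited gene and held 6 CG pairs, the median of all promoters, and 3 E-boxes but none of the other motifs. In all, 4 of the 6 members had a promoter entry. The window of Metrnl, at chr11:121702177-121702426, lies within the deposited gene and held 1 E-box, 38 bases before the RefSeq start. That of Fstl1, at chr16:37776805-37777054, runs past the first base of the deposited gene and held no match. A motif match or its absence is a description of letters, and binding was not measured.

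Split by supplement, the running change kept its sign in every arm for Fndc5 and Il15 and did not for the other 3 tested members. With both supplements, Il15 was the 1 member called, at a log2 change of 0.61 ± 0.17 (SE, edgeR adjusted p = 0.0456), where 1.70% of all genes were called. Its lowest, median and highest levels there were 5.45, 10.2 and 15.1 CPM in runners, against 4.87, 6.88 and 8.46 CPM in sedentary mice, and the ranges overlapped. That call stood close to the threshold and ended in several alternative fits, among them without the 2 libraries richest in fibroblast markers (adjusted p = 0.0529) and with limma voom weights (adjusted p = 0.0575). It also ended in cohort 2 alone, where the change was 0.21 (adjusted p = 0.792), against 1.00 in cohort 1 alone (adjusted p = 0.0358). In 5 of 8 fits that left out 1 day no member was called with both supplements. Without day 5 the 1 called member was Metrnl, at 0.82 (adjusted p = 0.0468), whose change in this arm was 0.52 in the full fit, 0.25 without the 2 fibroblast-rich libraries and 0.20 without day 7.

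In the other arms no member was called by edgeR. With NR alone, where 0.447% of all genes were called, the log2 changes of Il15 and Fndc5 were 0.30 ± 0.18 and 0.33 ± 0.17 (SE). With PT alone, where 0.00687% were called, they were 0.47 ± 0.17 for Il15 and 0.25 ± 0.17 for Fndc5. With no supplement, where 0% were called and 990 of 14549 genes had an unadjusted p below 0.05 (0 called by DESeq2), they were 0.41 ± 0.17 for Il15 and 0.15 ± 0.17 for Fndc5. The number of all genes called in an arm varied with the libraries kept. With NR alone it was 65, but 26 without the library of lowest total, which is in this arm, and between 2 (without day 4) and 99 (without day 7) when 1 day was left out. With both supplements it was 247, but 389 without that library, and between 30 (without day 4) and 448 (without day 6) when 1 day was left out. The intervals of these arms overlap, and an arm that misses the threshold is not thereby shown to differ from one that passes it.

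Metrnl and Fstl1 ran together across the arms. Their log2 changes with running were -0.25 ± 0.25 and -0.25 ± 0.22 (SE) with NR alone, 0.18 ± 0.23 and 0.20 ± 0.21 with PT alone, 0.32 ± 0.24 and 0.24 ± 0.22 with no supplement, and 0.52 ± 0.23 and 0.40 ± 0.21 with both. Ostn had its lowest value in the arm where theirs was highest, at 0.48 ± 0.25 with no supplement, 0.11 ± 0.25 with NR alone, -0.03 ± 0.24 with PT alone and -0.21 ± 0.24 with both. None of these passed the test, and the tests of differences between arms are given next.

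**Figure D3:**
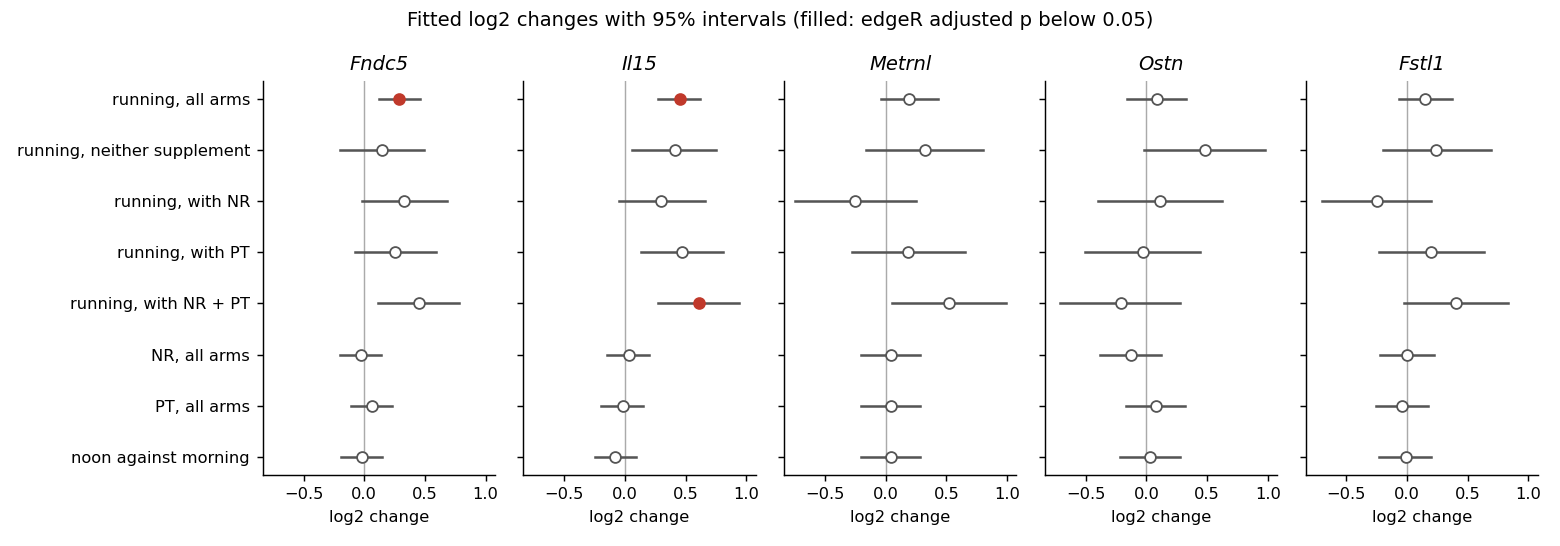
Fitted log2 change (point) and 95% interval (line) of the 5 tested members for 8 comparisons, running over sedentary, NR over no NR, PT over no PT and noon over morning; filled red points passed the adjusted threshold. Fndc5 and Il15 pass for running over all arms and Il15 also with both supplements, and the lines for NR, PT and time all cross 0.

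Averaged over the other factors, neither supplement gave a call of any member. A supplement was not tested within running mice or within sedentary mice alone. For NR over all arms, where 0.0206% of genes were called, the largest change was that of Ostn, with 7.69 ± 2.16 CPM under NR and 8.5 ± 3.15 CPM without it (SD, n = 31 each), a log2 change of -0.13 ± 0.12 (SE, edgeR adjusted p = 0.985). The other 4 lay between -0.03 and 0.04. For PT, where 0% of genes were called and 580 had an unadjusted p below 0.05 (0 called by DESeq2), the largest was again that of Ostn, with 8.33 ± 2.7 CPM under PT and 7.85 ± 2.74 CPM without it (SD, n = 32 and 30), a log2 change of 0.08 ± 0.12 (SE, 95% interval -0.17 to 0.32). The intervals for Fndc5 and Il15 were -0.20 to 0.14 and -0.15 to 0.20 for NR, and -0.11 to 0.23 and -0.20 to 0.15 for PT.

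Differences of the running change between arms were tested directly, and edgeR called no member and no gene (0% of genes in each of the 4 interactions). Genes with an unadjusted p below 0.05 numbered 525 for running by NR, 511 for running by PT, 327 for NR by PT and 403 for the 3-way term, and DESeq2 called 0, 6, 0 and 0 genes. The 3-way term was 0.91 ± 0.48 (SE, 95% interval -0.05 to 1.86) for Metrnl and 0.69 ± 0.43 (-0.18 to 1.57) for Fstl1. Ostn had -0.42 ± 0.25 for running by PT, -0.27 ± 0.25 for running by NR and -0.41 ± 0.25 for NR by PT. For Il15 the interval of running by NR was -0.33 to 0.36 and of running by PT -0.16 to 0.53, and for Fndc5 they were -0.16 to 0.53 and -0.23 to 0.45. Each of these intervals spans 0.

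The time of termination and the labelled change in body weight gave no call either (0% of genes in both). Noon over morning had log2 changes of -0.08 ± 0.09 (SE) for Il15 and between -0.02 and 0.04 for the other 4, and 768 genes had an unadjusted p below 0.05 (1 called by DESeq2). The change in body weight, in a unit the labels leave out, had a lowest, median and highest value of -5.2, -0.45 and 3.5 in runners, against -0.4, 2.5 and 6.3 in sedentary mice. Within groups, the slope per labelled unit was 0.08 ± 0.04 (SE) for both Fstl1 and Metrnl (edgeR adjusted p = 0.725 and 0.729), and 998 genes had an unadjusted p below 0.05 (1 called by DESeq2). For Fndc5 it was -0.04 ± 0.03 and for Il15 -0.02 ± 0.03.

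Ordered by mean, the 8 groups fell into a running and a sedentary block for Fndc5 and Il15 alone of the 5 tested members. From high to low, Fndc5 had means of 57.1 ± 16.8, 50.5 ± 11.9, 50.1 ± 10 and 49 ± 10.5 CPM (SD) in runners with both supplements, PT, neither and NR. It then had 44.9 ± 8.2, 43.1 ± 9.25, 41.5 ± 10.5 and 39 ± 6.52 CPM in sedentary mice with neither, PT, both and NR. None of its 7 steps between neighbours exceeded the smaller SD of the 2 groups. Il15 had 10.2 ± 3.05, 9.41 ± 2.53, 8.94 ± 2.29 and 8.84 ± 2.08 CPM in runners with both, neither, NR and PT. In sedentary mice it had 7.09 ± 1.09, 7.05 ± 1.48, 6.61 ± 1.4 and 6.52 ± 1.56 CPM with NR, neither, both and PT. Its 1 step above the smaller SD was the one between the blocks, 1.74 CPM.

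For the remaining members the order mixed runners and sedentary mice. Metrnl was highest in runners with both supplements, at 7.13 ± 4.08 CPM (SD), a mean that includes 1 mouse at 16.2 CPM over a median of 5.94 CPM. It was lowest in sedentary mice with both, at 4.64 ± 1.53 CPM. Fstl1 was likewise highest and lowest with both supplements, at 112 ± 47.1 CPM in runners and 80.4 ± 19.8 CPM in sedentary mice, with medians of 104 and 77 CPM. Ostn was lowest in sedentary mice with no supplement, at 6.51 ± 1.74 CPM, and highest in sedentary mice with PT, at 9.47 ± 2.99 CPM. All 7 steps of Ostn and Fstl1 and 6 of 7 steps of Metrnl were smaller than the smaller SD.

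The members fell into 2 pairs that varied together from mouse to mouse. Fndc5 and Il15 had a Pearson correlation of log2 CPM of 0.83 over 62 libraries (Spearman 0.80), 0.83 within each cohort and 0.80 after removal of group, day and time. Metrnl and Fstl1 had 0.80 (Spearman 0.75), 0.76 after the same removal, and 0.73 without the 2 mice farthest from the median. Every correlation across these pairs, or with Ostn, lay between -0.22 and 0.09. After removal of group, day and time they lay between -0.32, for Fndc5 with Fstl1, and 0.19, for Ostn with Fstl1. Il15 with Fstl1 then had -0.26. The libraries share sequencing depth, tissue sampling and scaling, so these are descriptions without a test.

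The pairs also differed in the cell markers they followed. Fstl1 had a correlation of 0.87 with the summed fibroblast markers and Metrnl 0.68, where Fndc5 and Il15 had -0.22 and -0.06. After removal of group, day and time these were 0.89, 0.68, -0.37 and -0.26. The markers do not weigh alike in this sum. Gsn alone had means of 1370 CPM in runners and 1330 CPM in sedentary mice, where the median sum of all libraries was 2500 CPM. With the summed endothelial markers Il15 had 0.71 and Fndc5 0.62, or 0.57 and 0.47 after removal of group, day and time. With the 10 myofibre markers, which are mostly of fast fibres, all 5 were negative, from -0.46 for Fndc5 to -0.32 for Ostn. The part of these cell markers in the changes of the members was not tested.

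**Figure D4:**
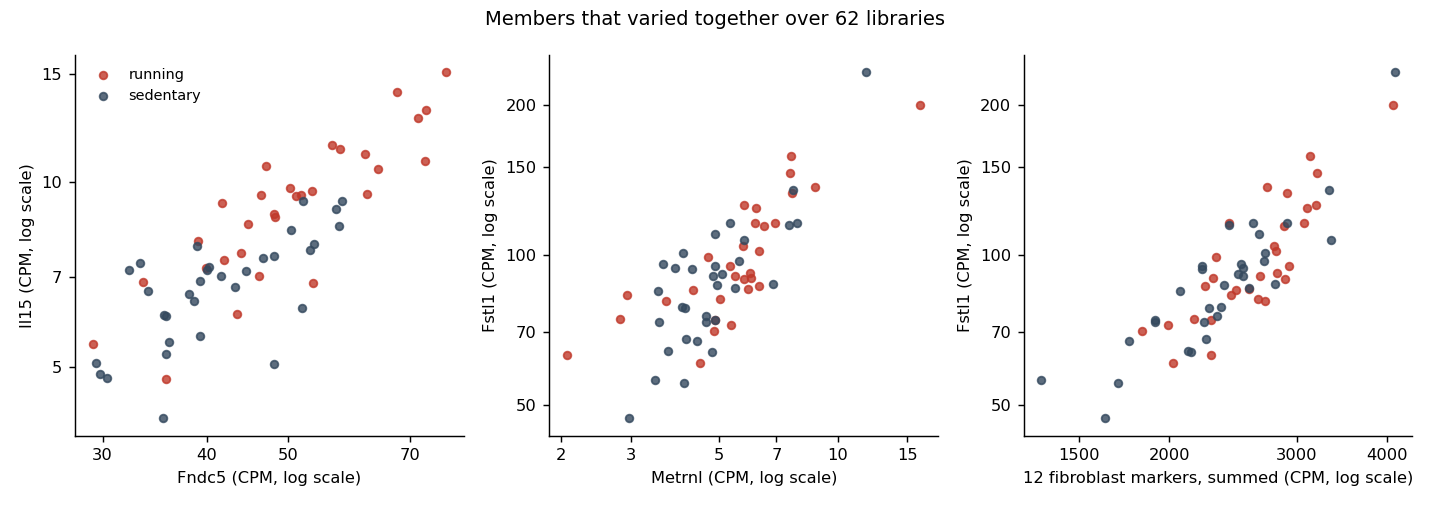
Levels in 62 libraries on log scales, runners in red and sedentary mice in blue, for Il15 against Fndc5 (left), Fstl1 against Metrnl (middle) and Fstl1 against the sum of 12 fibroblast markers (right), all in CPM. Each panel shows a rising band of points, and 2 libraries, 1 of each colour, stand at the top of the right panel with fibroblast sums of 4080 and 4100 CPM.

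Over 12790 genes, those most like Fndc5 across libraries were Coq8a, a kinase-like protein of coenzyme Q synthesis, with a correlation of 0.92, Bdh1, a mitochondrial enzyme of ketone body use, with 0.91, and Mb, myoglobin, with 0.91. Il15 was most like Myh1, the fast myosin IIx, Mb and Got2, the mitochondrial aspartate aminotransferase, at 0.87 each. These 5 genes were called higher in runners, with log2 changes of 0.28 ± 0.07 for Coq8a, 0.98 ± 0.25 for Bdh1, 0.67 ± 0.15 for Mb, 0.67 ± 0.14 for Myh1 and 0.33 ± 0.05 for Got2 (SE). The 5 genes were chosen by likeness over runners and sedentary mice together, so their calls are not a result separate from those of Fndc5 and Il15. Their likeness to Fndc5 held after removal of group, day and time, at 0.90 to 0.92, and that to Il15 was then 0.80.

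Fstl1 was most like Col14a1, a fibril-associated collagen, with 0.95, and Cd34 and Anxa1 with 0.93 each. Metrnl was most like Clec3b, or tetranectin, 1 of the 12 summed fibroblast markers, with 0.81, Fstl1 itself with 0.80 and Pdpn, podoplanin, with 0.79. None of these was called for running, with log2 changes of 0.16 for Col14a1, 0.16 for Cd34, 0.07 for Anxa1, 0.12 for Clec3b and -0.03 for Pdpn. Ostn had no close match, and its nearest were Car3, carbonic anhydrase 3, with 0.59, and Hfe and Tnc with 0.47 each.

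Among receptors and partners of the 6 factors, 22 of 26 listed genes could be tested, of which 5 rose and 2 fell in runners. Over all tested genes 8.41% were called higher and 5.58% lower in runners. The median log2 change of the 22 was 0.06, against 0.01 for all genes. Kit, the receptor tied to Metrnl, rose to 3.17 ± 0.754 CPM in runners, against 2.28 ± 0.71 CPM in sedentary mice (SD), a log2 change of 0.49 ± 0.09 (SE, edgeR adjusted p = 0.000152). Il2rg, the common gamma chain through which IL-15 signals, rose to 1.26 ± 0.459 CPM in runners, against 0.902 ± 0.303 CPM in sedentary mice, by 0.46 ± 0.12, and Jak3, the kinase on that chain, by 0.18 ± 0.05. Jak1, its partner kinase, fell by 0.08 on the log2 scale and Bmpr1a, a BMP receptor, by 0.17. Npr1, a natriuretic peptide receptor, rose by 0.20 and Itgb1, an integrin chain, by 0.07, and the last was not called with RLE scaling (edgeR adjusted p = 0.0579).

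Il15ra, Npr3, Itgav and Itgb5 were tested and did not pass. Il15ra, which presents IL-15, had 15.6 ± 1.92 CPM in runners and 15.4 ± 1.75 CPM in sedentary mice (SD), a log2 change of 0.01 ± 0.04 (SE). Npr3, the clearance receptor that osteocrin occupies, had 19 ± 12.8 CPM in runners and 19.5 ± 9.73 CPM in sedentary mice, at -0.13 ± 0.21. Itgav and Itgb5, the integrin chains described for irisin, had 0.07 ± 0.04 and -0.03 ± 0.03. Gfral had 3 counts over all 62 libraries, and Il2rb, Nppa and Nppb also had too few counts to test. These genes were named after their values were seen.

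Of 26 regulators upstream of the factors, 1 rose and 3 fell, with a median log2 change of -0.01. Over all tested genes 14.0% were called for running, so the number of regulators called was near the background. Ppargc1a, which encodes PGC-1alpha, rose to 36.6 ± 5.05 CPM in runners, against 31.7 ± 3.82 CPM in sedentary mice (SD), a log2 change of 0.20 ± 0.05 (SE, edgeR adjusted p = 0.00283). Stat5b, a transcription factor of growth hormone and cytokine signals, fell by 0.23, Atf4, a factor of the stress response that also acts on Gdf15, by 0.11 and Mef2a, a muscle factor, by 0.07 on the log2 scale. Esrra, the nuclear receptor that pairs with PGC-1alpha, had 0.11 ± 0.04 (edgeR adjusted p = 0.051). Without the library of lowest total, 6 of the 26 were called lower, the 3 further ones being Nr4a3, Foxo3 and Mef2d.

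Of 40 other secreted muscle factors, 33 could be tested, and 6 rose and 3 fell with running, at a median log2 change of 0.10. The background was 8.41% of all tested genes called higher and 5.58% lower in runners. Apln, the peptide apelin, rose to 2.99 ± 0.867 CPM in runners, against 1.95 ± 0.67 CPM in sedentary mice (SD), a log2 change of 0.63 ± 0.11 (SE, edgeR adjusted p = 7.40e-05) that is above that of any of the 6 members. Ctsb, the protease cathepsin B, rose by 0.13 ± 0.02 and Bgn, the matrix proteoglycan biglycan, by 0.33 ± 0.07. Tgfb2 fell by 0.17 and Gdf11 by 0.30 on the log2 scale. The others called, named after their values were seen, were Metrn, the paralog of Metrnl, at 0.26, the growth factors Igf1 at 0.32 and Vegfb at 0.13, and Mstn, the growth inhibitor myostatin, at -0.24. Vegfb was not called without the library of lowest total (edgeR adjusted p = 0.0553).

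Il6 and Fgf21, both described as exercise factors, were too low for the test. Il6 had 0.108 ± 0.0923 CPM in runners and 0.102 ± 0.0888 CPM in sedentary mice (SD), and Fgf21 had 29 counts in all 62 libraries. Bdnf, at a log2 change of 0.25 ± 0.19, was tested and not called (edgeR adjusted p = 0.387).

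Some markers of other cell types were also called for running, where 14.0% of all tested genes were called. All 12 endothelial markers rose, at a median log2 change of 0.27, among them Cdh5, the endothelial cadherin, by 0.35 ± 0.04 and Sox17, an endothelial transcription factor, by 0.40 ± 0.06 (SE). Without the library of lowest total 11 of the 12 were called higher, and Kdr, at 0.21 (edgeR adjusted p = 0.0598), was not called. Of 12 fibroblast markers Lum, Col3a1 and Col1a2 rose (median 0.14), of 11 tested macrophage and leukocyte markers Cd68 and Ptprc rose (median 0.17), and of 10 pericyte and smooth muscle markers Rgs5, Pdgfrb and Cspg4 rose and Acta2 fell (median 0.05). Of 8 adipocyte markers Fabp4 rose (median 0.11), and of 10 myofibre markers Atp2a1 fell (median -0.07). Without the library of lowest total 3 myofibre markers were called lower. The further ones were Tnnt3, at -0.08 (edgeR adjusted p = 0.0479), and Myh4, at -0.12 (edgeR adjusted p = 0.0406). With RLE scaling 2 were called lower, the further one being Tnnt3. The part of these cell types in the changes of Il15, Fndc5, Kit or Il2rg was not tested.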

How the data were processed

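Reads per gene were counted in 62 quadriceps libraries. The deposited table holds whole-number counts that were not normalized. The authors used STAR 2.7.3a, featureCounts 2.0.0 and mm10, per the submitters' processing notes. Per the labels' protocols, extraction used TRIzol, then columns and DNase, and the poly-A kit was stranded. The sources used here give neither the strand setting of the counting nor the annotation release. Symbols from GENCODE M21 matched 55394 of 55487 identifiers. The 0.168% with no symbol are genes and stayed in.

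Low counts were removed by filterByExpr (count minimum 10, total minimum 15). Libraries were scaled by TMM and tested with edgeR 4.0.16 (robust quasi-likelihood F test, two-sided, 46 residual degrees of freedom, biological coefficient of variation 14%) in R 4.3.3, with Benjamini-Hochberg adjustment over 14549 genes. CPM and RPKM were computed from the counts with TMM-scaled totals and the deposited gene lengths. Correlations used log2 of CPM plus 0.5. DESeq2 1.42.0, limma 3.58.1 and 24 alternatives in all were tried, and the pipeline was tested on simulated data. Replicate numbers were not taken to pair mice across groups. The closest of 210 replicate pairs differed by a chi-square of 4.49 per gene, so no library was a copy of another in its group. Libraries of different groups were not compared in this way. Each library carries a label of body weight change, though some values repeat, and each was taken as 1 mouse. No molecular identifiers are described, so reads are not independent molecules.

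All 6 members were named. From each list up to 5 genes with the smallest p for running were named by rule, and for each tested member the 3 most correlated genes, predicted genes and pseudogenes left out. The members, lists and tests were chosen with earlier results of these data known. The result of 1 marker list is not reported here.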

Additional observations from a re-analysis of the deposited data

Results flagged for a closer look

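Of 40 sets of 7 or 8 values (5 members in 8 groups), 6 held 1 mouse far from its group, each time above it. The rule flags about 1 in 20 sets by chance where sets are independent and values normally distributed. These sets share mice, and Metrnl and Fstl1 varied together, so that rate cannot be set against the number found. Fndc5 stood at 71.7 CPM in running mouse 2 with NR, with the next at 51.1 CPM. Metrnl stood at 16.2 CPM in running mouse 7 with both supplements, with the next at 8.76 CPM, at 11.8 CPM in sedentary mouse 6 with NR, with the next at 7.54 CPM, and at 7.7 CPM in sedentary mouse 4 with PT, with the next at 5.11 CPM. Fstl1 stood at 133 CPM in running mouse 3 with NR, with the next at 89.7 CPM, and at 233 CPM in sedentary mouse 6 with NR, with the next at 115 CPM. Running mouse 7 with both supplements and sedentary mouse 6 with NR also had the highest sums of fibroblast markers of all libraries, at 4080 and 4100 CPM, and the part of those cells in these values was not tested.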

How the results depend on the processing

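For running over all arms, Il15 kept its call in 23 of 24 alternatives and Fndc5 in 19 of 24, with log2 changes of 0.32 to 0.53 and 0.22 to 0.33. The number of members called, 2, became 1 in cohort 1 alone, 0 in cohort 2 alone and 1 with no filter on low counts, where Fndc5 had 0.28 (edgeR adjusted p = 0.0514), and lay between 1 and 2 when 1 day was left out. The number of all genes called for running, 2035, became 623 in cohort 1 alone, 63 in cohort 2 alone, 1333 with no filter and 1245 with counts summed per session, lay between 1036 (without day 1) and 2358 (without day 2), and was 2391 without the library of lowest total. Cohorts and left-out days hold fewer mice, and the fit with no filter tests more genes. With both supplements the 1 call, of Il15, became 0 with limma voom quality weights, in cohort 2 alone, with the purification pool as a term, without the 2 libraries richest in fibroblast markers and with no filter, and lay between 0 and 1 when 1 day was left out. The cause was not tested. The pool term and the 2 fits without named libraries were chosen after the data were seen. Ostn turned to -0.10 in cohort 2 alone and lay between -0.03 (without day 2) and 0.17 when 1 day was left out. With a replicate block Fndc5 had 0.32 and Il15 0.46 (adjusted p = 0.0141 and 0.000272), 2 members were called, and no call of a member changed. Same-numbered mice had a median correlation of deviations of 0.00825 and other pairs -0.00397. Mice of the same day, a grouping known to exist, had 0.00957, so this measure cannot show whether the numbers pair mice. Of the other genes called for running, Cspg4 lost its call in 13 of 24 alternatives, Ptprc in 11 and Mef2a, Cd68, Acta2 and Fabp4 in 9 each, with no change of sign. For NR, PT, the interactions, time and body weight no member was called in any alternative run. Depth limits Gdf15, whose highest count was 6, and 8 counts of Metrnl in the shallowest library.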
